A study of Mus musculus with 8 samples.

Results

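The genes described here lie on distal mouse chromosome 1 around the congenic Sle1 interval and belong to none of its SLAM, Fc receptor or Ifi200 families. They were chosen by name and position, and 36 of the 37 listed genes had a probe set assigned to that gene alone, of 19938 genes so measured. Lmx1a had none and was not analysed here, and Pvrl4 was read under its newer symbol Nectin4. Of the 36 genes, 30 exceeded the 25th percentile of gene means on the log2 scale (5.01) and were tested, while Rxrg, Klhdc9, Nhlh1, Casq1, Crp and Apcs fell below it.

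Splenocytes were measured on 8 Affymetrix Mouse Gene 1.0 ST arrays, and the labels do not say whether each array is 1 animal, so p-values measure the spread between these samples. Wild-type mice (WT, n = 2), Sle1.3 lupus mice (n = 3) and Sle1.3 mice haplodeficient for the transcription factor E2-2 (Sle1.3/E2-2het, n = 3) were all labelled as C57/B6 in strain background. The tissue was dissociated by collagenase and DNase. The labels give no ages and do not give the limits of the introgressed segment or the way in which the E2-2 copy was lost. Each value is an average over the mixed cells of a spleen, so fewer cells of a type and less RNA per cell cannot be told apart.

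Sle1 is a lupus susceptibility locus on distal chromosome 1 that was bred from the NZM2410 strain onto the B6 background, and it is known for loss of tolerance to nuclear antigens. In a congenic mouse, every gene inside the introgressed segment carries the donor allele, whatever its function. By their labels both Sle1.3 genotypes carry Sle1.3 and WT mice do not. The mean of both Sle1.3 genotypes minus WT is thus the comparison that follows this label. It also follows every other difference between these groups, such as any other introgressed segment, and cannot single out the chromosome 1 interval. The comparison of Sle1.3/E2-2het with Sle1.3 holds the segment constant.

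The reference sequence upstream of 4 of these genes is shown because they had the largest differences from WT, and 1 of them, Kcnj10, was the gene that was higher. Each run holds the 200 bases before the listed start in the RefSeq promoter table (GRCm38.p6, plus strand, 5′ to 3′). Capitals mark matches, on either strand, to a GC box (GGGCGG) or a CCAAT box (CCAAT). The B4galt3 window is chr1:171270128-171270327, the Dedd window chr1:171328608-171328807, the Tagln2 window chr1:172500046-172500245 and the Kcnj10 window chr1:172341010-172341209. For Dedd the start lying furthest upstream of 4 listed starts was taken, and the RefSeq gene model itself begins before this window.
B4galt3: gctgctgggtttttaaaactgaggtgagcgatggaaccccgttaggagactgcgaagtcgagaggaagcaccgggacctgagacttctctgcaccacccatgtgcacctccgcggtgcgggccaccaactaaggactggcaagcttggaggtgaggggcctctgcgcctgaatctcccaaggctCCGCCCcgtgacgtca
Dedd: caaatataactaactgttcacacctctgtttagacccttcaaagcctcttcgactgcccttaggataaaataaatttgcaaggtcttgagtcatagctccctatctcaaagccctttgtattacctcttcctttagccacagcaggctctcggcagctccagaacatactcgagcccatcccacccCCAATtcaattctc
Tagln2: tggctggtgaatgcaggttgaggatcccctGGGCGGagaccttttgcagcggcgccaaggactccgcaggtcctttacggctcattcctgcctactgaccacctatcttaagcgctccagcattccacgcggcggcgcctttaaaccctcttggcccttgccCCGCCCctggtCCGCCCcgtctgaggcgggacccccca
Kcnj10: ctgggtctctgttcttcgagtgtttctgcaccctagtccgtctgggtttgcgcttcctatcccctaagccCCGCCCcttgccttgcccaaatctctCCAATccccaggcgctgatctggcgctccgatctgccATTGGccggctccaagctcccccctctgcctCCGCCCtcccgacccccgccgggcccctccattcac
The windows of B4galt3, Tagln2 and Kcnj10 were rich in G and C (61.0%, 64.5% and 65.0%) and held 12, 14 and 12 CpG, against a median of 53.0% and 5 CpG over 32851 listed start windows. The Dedd window had 45.5% G and C and 3 CpG. Tagln2 held 3 GC boxes, Kcnj10 held 2 GC boxes and 2 CCAAT boxes, B4galt3 held 1 GC box and Dedd 1 CCAAT box. A GC box was found in 22 of 41 windows of the listed genes, against 31% of all windows, and a CCAAT box in 12 of 41, against 29.3%. The E-box CACGTG, the site read by the factor encoded by Usf1 in this interval, was in 1 of 41 windows, against 5.26% of all, and TATAAA was in 2 of 41, against 9.96%. The 4 printed windows held neither of these last motifs. These are B6 reference letters, and the donor allele was not read.

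The arrays fell into a first set of 6 and a second set of 2, the replicates numbered 3 of both Sle1.3 genotypes, whose lowest linear intensities were 10.9 and 11.2 against 4.57 to 5.11 in the first set. No WT array was in the second set. The third value of each Sle1.3 genotype below is therefore from the second set, and the array set was a term in every difference and adjusted p given here (limma, Benjamini-Hochberg over 14953 genes), unless another fit is named. With that term, the difference of both Sle1.3 genotypes from WT equals the first-set difference. Tcf4, the gene of E2-2, was 9.02 and 8.80 in WT, 8.67, 8.63 and 9.06 in Sle1.3 and 8.18, 8.13 and 9.25 in Sle1.3/E2-2het, so the second-set Sle1.3/E2-2het array goes against its label. Xist was 10.68 to 11.90 in the Sle1.3 mice, 3.75 and 4.11 in WT, and 3.79, 4.29 and 11.82 in Sle1.3/E2-2het. The library labelled Sle1.3 replicate 3 is labelled male, and its Uty value (4.27) was near the 3.82 and 3.86 of the females labelled Sle1.3 replicates 1 and 2. By these genes, Sle1.3 against WT compares females with males and genotype and sex cannot be told apart there, while Sle1.3/E2-2het against WT in the first set compares males with males.

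Both spleen lymphocyte lists were strongly present, with summed linear intensities of 7190 to 11235 for 3 B cell genes and 1449 to 2508 for 4 T cell genes. Against WT, 1 gene of each list was lower, Cd79a of the B cell receptor (-0.70, adjusted p = 0.00912) and Cd3e of the T cell receptor (-0.72, adjusted p = 0.00921). The others did not pass: Cd79b (-0.31), Ms4a1 (0.01), Cd3g (-0.26), Cd4 (-0.37) and Cd8a (-0.07). Over the whole array 23.9% of tested genes were lower and 10.9% higher. Markers of other cell types also moved with the comparison against WT. All 8 neutrophil precursor genes were higher in the Sle1.3 genotypes, with sums of 1045 to 2095 in WT, 6471 to 20460 in Sle1.3 and 5508 to 17656 in Sle1.3/E2-2het. All 5 genes of dividing cells and all 3 measured of 7 erythroid genes were higher, and 3 of 6 macrophage genes were higher. The erythroid sums were 432 to 819 in WT, 662 to 2490 in Sle1.3 and 2401 to 6337 in Sle1.3/E2-2het. Slc4a1 and Alas2 did not pass in Sle1.3 alone against WT (0.24 and 0.17, adjusted p = 0.695 and 0.823). Both were higher in Sle1.3/E2-2het than in Sle1.3 (2.25 and 2.34, adjusted p = 0.0157 and 0.0293). Car1 passed in Sle1.3 alone (adjusted p = 0.0487) and not between the Sle1.3 genotypes (adjusted p = 0.314). Of 5 natural killer genes 3 were lower, with sums of 1715 to 1896 in WT, 828 to 923 in Sle1.3 and 923 to 1430 in Sle1.3/E2-2het. Stroma had 1 of 4 genes higher, and no tested hepatocyte, muscle or nervous tissue gene was called. No marker is listed at 0. The part of these cell types in the differences below was not tested.

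Against WT, 9 of the 30 tested interval genes differed in the Sle1.3 genotypes together, 8 lower and 1 higher. The lower genes were B4galt3, Tagln2, Dedd, Usp21, Ncstn, Arhgap30, Pea15a and Pex19, with log2 differences of -0.46 to -0.99, and the higher gene was the potassium channel gene Kcnj10 (0.77). The share called, 30.0%, has to be read against 34.8% of all 14953 tested genes in the same comparison. In the lower direction 26.7% of interval genes were called against 23.9% of all genes, and in the higher direction 3.33% against 10.9%. The median difference was -0.14 over the 30 genes and -0.07 over all tested genes. Both WT arrays lay above all 6 others for 6 of the 30 genes (18.6% of all tested genes) and below them for 3, Ddr2, Kcnj10 and Fh1 (16.3% of all). The interval genes were thus called at about the rate of the whole array.

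**Figure D1:**
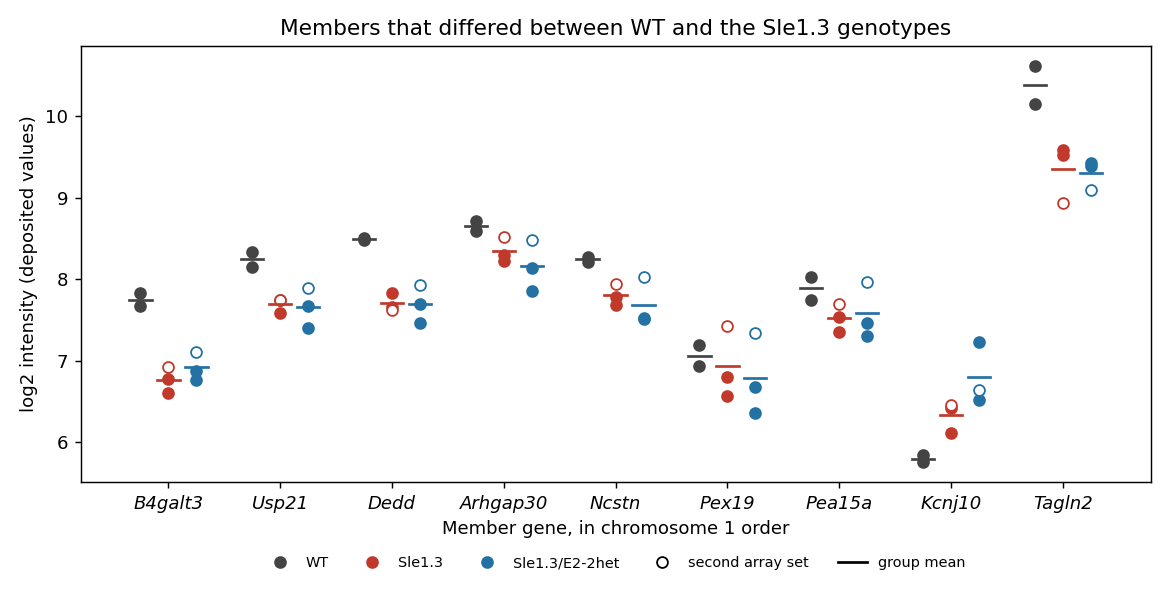
Log2 intensity of the 9 called interval genes (vertical axis, deposited values) in each of the 8 arrays, with genes in chromosome order along the horizontal axis. Points are arrays coloured by genotype, open points are the second array set, and bars are group means. Both WT points of B4galt3, Usp21, Dedd, Arhgap30, Ncstn and Tagln2 lie above the other 6 points, both WT points of Kcnj10 lie below them, and those of Pex19 and Pea15a do not stand clear of the open points.

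Genes of the secretory pathway and of membrane proteolysis held the largest difference. B4galt3 encodes a Golgi galactosyltransferase that extends the sugar chains of glycoproteins. Its log2 intensity was 7.83 and 7.67 in WT, 6.77, 6.60 and 6.92 in Sle1.3, and 6.77, 6.88 and 7.11 in Sle1.3/E2-2het. All 6 Sle1.3-genotype arrays were below both WT arrays. The second-set array was the highest of each Sle1.3 genotype, and the set difference did not pass (0.26, adjusted p = 0.120). The difference from WT was -0.99 (SE 0.12, adjusted p = 0.000443), a 1.99-fold lower signal. Sle1.3 alone differed by -1.07 (adjusted p = 0.000859) and Sle1.3/E2-2het alone by -0.92 (adjusted p = 0.00131), against the same WT arrays.

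Ncstn encodes nicastrin, the substrate-binding subunit of gamma-secretase, which cuts Notch and other membrane proteins. It was 8.22 and 8.28 in WT, 7.69, 7.79 and 7.94 in Sle1.3, and 7.51, 7.52 and 8.03 in Sle1.3/E2-2het. Both WT arrays lay above the other 6, which overlapped between the Sle1.3 genotypes, and the second-set arrays were the highest of each Sle1.3 genotype. The difference was -0.62 (SE 0.13, adjusted p = 0.00406). Copa, the alpha subunit of the COPI coat of Golgi vesicles, is the next listed gene in chromosome order. It was 9.67 and 9.81 in WT, 9.56, 9.62 and 9.85 in Sle1.3, and 9.21, 9.21 and 9.94 in Sle1.3/E2-2het. Its combined difference did not pass (-0.34, SE 0.14, adjusted p = 0.0717), though it did under median centring (-0.40, adjusted p = 0.0489), while Sle1.3/E2-2het against WT did (-0.45, adjusted p = 0.0380), and the difference between both Sle1.3 genotypes did not (adjusted p = 0.589). Adamts4, a matrix protease, differed by 0.10 (adjusted p = 0.563).

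Among signalling genes 3 of 5 were lower, where 23.9% of all tested genes were. The groups by function hold few genes and were not tested as sets. Dedd encodes a death-effector-domain protein linked to apoptosis. It was 8.50 and 8.48 in WT, 7.66, 7.83 and 7.62 in Sle1.3, and 7.70, 7.46 and 7.93 in Sle1.3/E2-2het. The WT arrays were close to each other and well above the rest, and the difference was -0.83 (SE 0.15, adjusted p = 0.00203). Arhgap30, a GTPase-activating protein, was 8.59 and 8.71 in WT, 8.23, 8.29 and 8.52 in Sle1.3, and 7.86, 8.14 and 8.49 in Sle1.3/E2-2het. No array overlapped with WT, and the fitted difference was -0.52 (SE 0.13, adjusted p = 0.0111). It did not pass under quantile normalization (-0.30, adjusted p = 0.106) or without WT replicate 2 (-0.47, adjusted p = 0.0993).

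Pea15a, which binds death-effector domains and ERK kinases, was 7.74 and 8.03 in WT, 7.53, 7.35 and 7.70 in Sle1.3, and 7.47, 7.31 and 7.97 in Sle1.3/E2-2het. Its second-set Sle1.3/E2-2het array lay within the WT range, the other 5 arrays lay below both WT arrays, and the difference was -0.47 (SE 0.14, adjusted p = 0.0236). It did not pass under quantile normalization (-0.26, adjusted p = 0.155), without WT replicate 2 (-0.33, adjusted p = 0.224) or without Sle1.3/E2-2het replicate 2 (-0.42, adjusted p = 0.0545). Uhmk1, a kinase of splicing regulators, differed by -0.37 (adjusted p = 0.0861), and it passed under the replicate block (adjusted p = 0.0341), without WT replicate 1 (-0.56, adjusted p = 0.0491) and without Sle1.3 replicate 2 (-0.46, adjusted p = 0.0421). Ddr2, a collagen-binding receptor kinase, differed by 0.19 (adjusted p = 0.257).

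Channel, muscle and cytoskeleton genes contained both directions. Tagln2 encodes transgelin-2, an actin-binding protein of lymphocytes and other cells. It was 10.62 and 10.15 in WT, 9.59, 9.53 and 8.94 in Sle1.3, and 9.43, 9.39 and 9.09 in Sle1.3/E2-2het. Both WT arrays lay above the other 6, the Sle1.3 genotypes overlapped, and the second-set arrays were the lowest. The difference from WT was -0.90 (SE 0.15, adjusted p = 0.00161), and the second set differed from the first by -0.47 (adjusted p = 0.0298).

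Kcnj10 encodes the inward-rectifier channel Kir4.1, best known in glia and kidney. It was 5.84 and 5.75 in WT, 6.42, 6.12 and 6.45 in Sle1.3, and 7.22, 6.52 and 6.64 in Sle1.3/E2-2het. All 6 Sle1.3-genotype arrays were above both WT arrays, and Sle1.3/E2-2het replicate 1 was the highest. The difference from WT was 0.77 (SE 0.19, adjusted p = 0.00974). It did not pass without WT replicate 2 (0.73, adjusted p = 0.104). The nervous tissue markers summed to 196 and 200 in WT and to 180 to 231 in the other arrays. The erythroid markers were also highest in Sle1.3/E2-2het replicate 1 (6337, against 662 to 3087 in the other Sle1.3-genotype arrays), and their part in this value was not tested. Opn3, an opsin found outside the eye, differed by -0.13 (adjusted p = 0.444), and Casq1, the calcium store protein of muscle, was below the filter at 4.62 to 5.13.

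Of the ubiquitin, UFM1 and folding genes 1 of 4 tested differed, against 34.8% of all tested genes. Usp21, a deubiquitinase, was 8.15 and 8.34 in WT, 7.75, 7.59 and 7.75 in Sle1.3, and 7.67, 7.40 and 7.89 in Sle1.3/E2-2het. Both WT arrays lay above the other 6, the Sle1.3 genotypes overlapped, and the difference was -0.64 (SE 0.14, adjusted p = 0.00533). It did not pass without WT replicate 2 (-0.55, adjusted p = 0.0701). Ufc1, the conjugating enzyme of the ubiquitin-like UFM1, follows Usp21 in the list. It was 6.67 and 7.30 in WT and 7.23 to 8.03 in the other arrays, with a difference of 0.33 (SE 0.17, adjusted p = 0.147). Ufc1 passed under quantile normalization (0.49, adjusted p = 0.0345) and without WT replicate 2 (0.64, adjusted p = 0.0326). Dcaf8, a substrate receptor of cullin ligases, differed by -0.31 (adjusted p = 0.114), and Pfdn2, a prefoldin subunit, did not pass.

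Mitochondrial, peroxisomal and metabolic genes had 1 of 6 called, against 34.8% of all tested genes. Pex19, the chaperone that brings membrane proteins to peroxisomes, was 6.94 and 7.19 in WT, 6.57, 6.80 and 7.43 in Sle1.3, and 6.36, 6.67 and 7.34 in Sle1.3/E2-2het. Its first-set arrays lay below WT and its second-set arrays above, with a set difference of 0.79 (adjusted p = 0.00250). The difference from WT was -0.46 (SE 0.14, adjusted p = 0.0269), and it did not pass under quantile normalization (-0.33, adjusted p = 0.105). It also did not pass without WT replicate 2 (-0.34), Sle1.3 replicate 1 (-0.42) or Sle1.3/E2-2het replicate 1 (-0.39), with adjusted p of 0.230, 0.0735 and 0.0711. Kmo, the monooxygenase of the kynurenine pathway, was 8.34 and 8.86 in WT and 7.94 to 8.76 in the others, a difference of -0.39 (SE 0.19, adjusted p = 0.130). Fh1, fumarate hydratase of the citrate cycle, was 7.54 and 7.77 in WT and 7.78 to 8.22 in the others. Its difference was 0.19 (SE 0.12, adjusted p = 0.240), and quantile normalization gave 0.41 (adjusted p = 0.0224). Sdhc, a membrane anchor of complex II, Tomm40l, a paralogue of a mitochondrial import channel, and Nit1, an amidase, lay between -0.14 and 0.12.

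No adhesion or surface gene was called among 6, against 34.8% of all tested genes. Vangl2, a planar polarity protein, had -0.15, Igsf9 0.15, and F11r (a tight junction protein also found on leukocytes and platelets), Igsf8, Cadm3 and Pvrl4 lay between -0.08 and 0.12. The transcription factor gene Usf1 was 6.34 and 6.66 in WT, 6.29, 6.40 and 5.74 in Sle1.3 and 6.12, 6.15 and 5.73 in Sle1.3/E2-2het. Its difference from WT did not pass (-0.26, SE 0.13, adjusted p = 0.153), and its second-set arrays were lower by 0.51 on the log2 scale (adjusted p = 0.0139). Of the plasma protein genes, which are made mainly in liver, Apoa2 was 6.12 and 5.85 in WT and 5.90 to 6.60 in the others, with a difference of 0.07 (adjusted p = 0.738). Crp and Apcs, the pentraxins, were below the filter, at 4.50 to 5.21 and 3.60 to 4.62, as were the transcription factor genes Rxrg (3.94 to 4.80) and Nhlh1 (3.87 to 5.05) and the kelch gene Klhdc9 (4.51 to 5.13).

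In all, 21 of the 30 tested genes did not pass, with differences of -0.39 to 0.33 and adjusted p of 0.0717 to 0.791. Their 95% intervals reached from -0.80 to 0.69, so differences of up to that size may not be detectable with this number of arrays. WT replicate 2 weighed most on the count: without it 5 interval genes and 11.1% of all genes were called, and without WT replicate 1 the counts were 10 and 32.6%. B4galt3, Dedd and Tagln2 were called under all 17 alternatives, with differences of -0.80 to -1.07, -0.59 to -0.91 and -0.67 to -1.14. Usp21, Arhgap30, Ncstn, Pex19 and Pea15a did not pass with group alone or with labelled sex in place of the array set, and Kcnj10 did not with labelled sex (0.87, adjusted p = 0.0666).

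**Figure D2:**
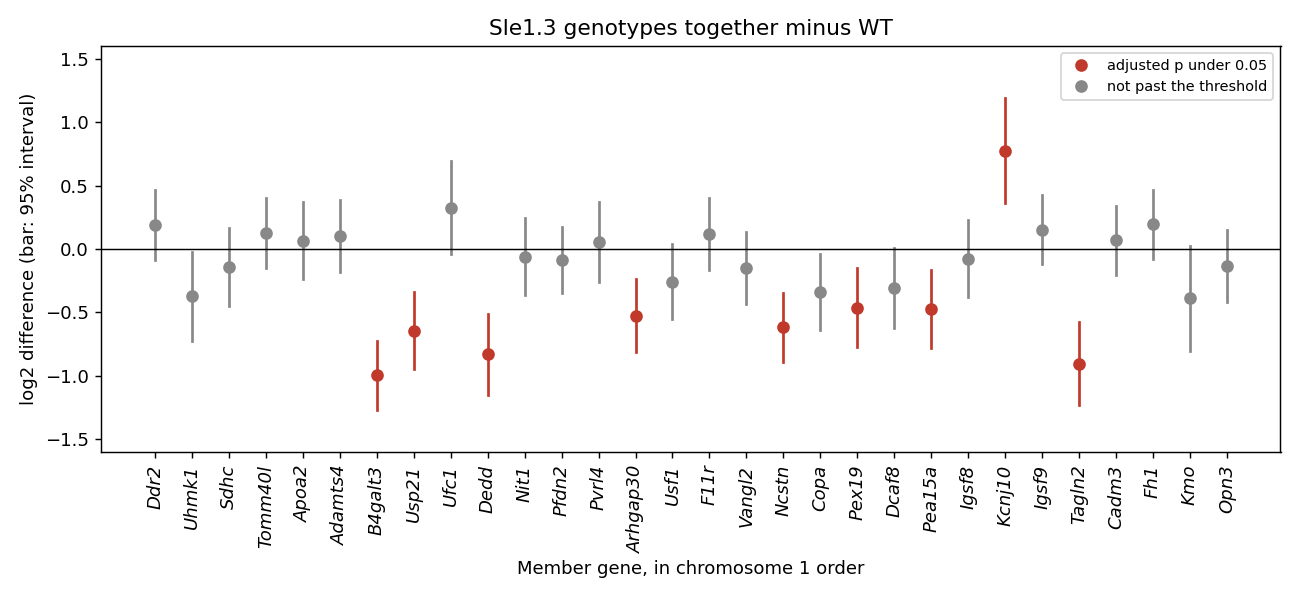
Log2 difference of the Sle1.3 genotypes together from WT (vertical axis) for the 30 tested interval genes in chromosome order (horizontal axis). Points are fitted differences, bars are 95% intervals, and red marks adjusted p under 0.05. Called genes among these 30 lie between B4galt3 and Tagln2, next to genes such as Ufc1, Nit1 and Igsf9 whose intervals hold 0. Interval genes that were not listed are not shown.

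Along the chromosome, the 9 called genes lay between B4galt3 and Tagln2 and were interspersed with genes that did not pass. The first 6 tested genes of the order, Ddr2 to Adamts4, and the last 4, Cadm3 to Opn3, held no call in the main fit. Of these, Fh1 passed under quantile normalization, and Uhmk1 under other alternatives. This stretch depends on which genes were listed. Genes of the interval that were not listed were also called before B4galt3, such as Nuf2 (0.75) and Uap1 (-0.72), and after Tagln2, such as Ackr1 (1.14). B4galt3, Usp21 and Dedd are near neighbours, with Ufc1 in between. Ppox, a heme synthesis enzyme between B4galt3 and Usp21, was chosen after its values were seen. It was 8.12 and 7.92 in WT, 7.44, 7.35 and 7.51 in Sle1.3, and 7.56, 7.56 and 7.59 in Sle1.3/E2-2het (difference -0.55, SE 0.12, adjusted p = 0.00655).

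Of 58 other tested genes that RefSeq places between the outermost interval genes, 16 were higher and 5 lower (36.2%), with a median of 0.13, and 11 were called without WT replicate 2. Of 671 genes of chromosome 1 before the interval 29.7% were called (66 higher, 133 lower). The share was 41.7% of 108 genes after it (7 higher, 38 lower). On other chromosomes it was 35% of 14040 genes (1528 higher, 3391 lower). With both directions pooled, the share in the interval was thus within the range of its surroundings. By direction it was unlike them. Lower calls outnumbered higher ones in these surroundings, while higher calls outnumbered lower ones among the 58 genes. The 10 with the largest differences were Fcgr4 (1.45), an IgG receptor of monocytes and neutrophils, the olfactory receptor genes Olfr420 (1.21), Olfr220 (1.06), Olfr231 (0.97), Olfr427 (0.84) and Olfr429 (0.68), the chemokine-binding receptor gene Ackr1 (1.14), the kinetochore gene Nuf2 (0.75), and, among lower genes, Slamf8 (-0.88) and Uap1 (-0.72), an enzyme of sugar nucleotide synthesis. Of 12 tested olfactory receptor genes of the interval 9 were higher and 0 lower in limma, a group singled out after its values were seen. Over all tested genes 10.9% were higher, and 791 of the 3739 with a mean of 5.01 to 5.73 were. The filter used the mean over all arrays, so genes low in WT could enter through the Sle1.3-genotype arrays. Among the 9, Olfr417 and Olfr220 had WT means above the filter of 5.01 (5.43 and 5.16). The others had WT means of 4.25 to 4.96, below it, and Ackr1 (4.81) was below it too. The filter can therefore favour higher calls among such genes, and its part in this count was not tested. Fcgr4 was the gene of these 58 that also differed when the Sle1.3 genotypes were compared, lower in Sle1.3/E2-2het (-2.33, SE 0.26, adjusted p = 0.00279). Against WT, Fcgr4 was higher in Sle1.3 (2.62, adjusted p = 0.000537) and did not pass in Sle1.3/E2-2het (0.29, adjusted p = 0.474). Its combined value is thus a mean of unlike differences. In the immune families of the interval as listed, 2 of 17 tested genes were higher (Fcgr4 and Fcer1g, the shared signalling chain of Fc receptors) and 1 lower (Slamf8). The share called there was 17.6%, against 34.8% of all tested genes.

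Differences from WT changed with signal over the whole array. In the lowest of 4 equal classes of mean log2 intensity (5.01 to 5.73), 791 genes were higher and 144 lower in the Sle1.3 genotypes, with a median of 0.18. In the highest class (7.74 to 13.93), 138 were higher and 1494 lower, with a median of -0.32. The interquartile range of log2 values was 2.77 and 2.97 in WT against 2.41 to 2.57 in the other arrays. All 8 lower interval genes were in the upper 2 classes, where 17 interval genes were tested. In the third class (6.59 to 7.74) 3 of 5 were lower, against 1398 of all 3738 genes, which had a median of -0.29. In the highest class 5 of 12 were lower, against 1494 of all 3738. Kcnj10 was in the second class, where 505 of 3738 genes were higher. Quantile normalization, which gives the arrays the same distribution, called 8 interval genes, 5 lower and 3 higher (Kcnj10, Ufc1 and Fh1), and 20.9% of all genes. Under it B4galt3 differed by -0.80, Tagln2 by -0.87, Dedd by -0.59, Usp21 by -0.42 and Ncstn by -0.39.

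**Figure D3:**
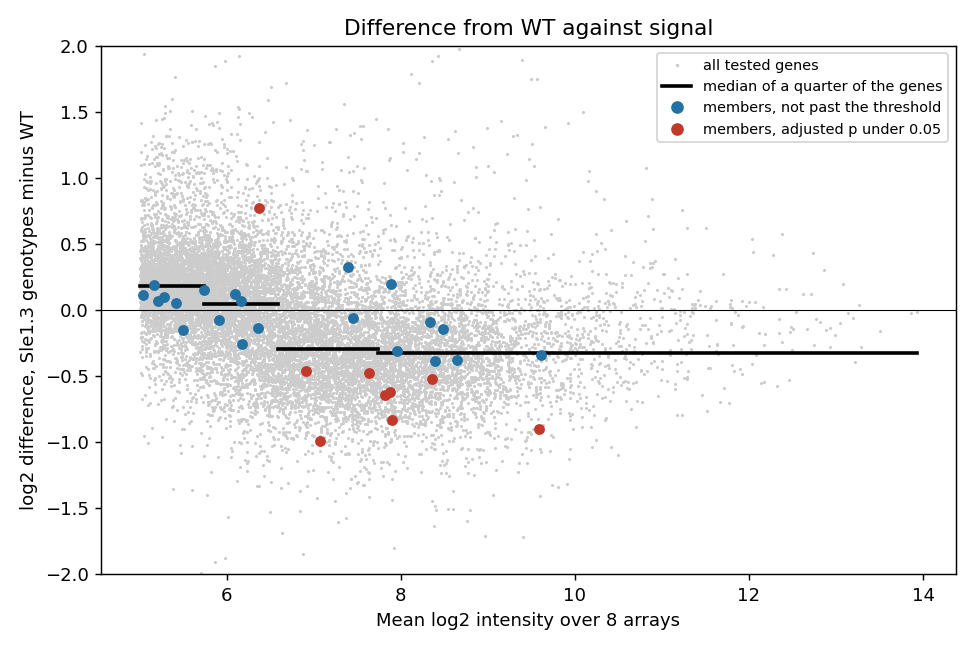
Log2 difference of the Sle1.3 genotypes from WT (vertical axis) against mean log2 intensity over 8 arrays (horizontal axis) for all 14953 tested genes (grey), with interval genes in blue (not past the threshold) and red (adjusted p under 0.05). Black bars are medians of 4 equal classes of intensity, falling from 0.18 in the lowest to -0.32 in the highest class, and 30 genes lie outside the plotted range.

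Each Sle1.3 genotype was also compared alone with WT, and both comparisons share the WT arrays. Sle1.3 against WT called 6 interval genes, all lower (20%, against 24% of all genes, 16.5% lower): B4galt3, Usp21, Dedd, Ncstn, Pea15a and Tagln2. The replicate block raised this count to 10, and the share of all genes to 29.5%. Sle1.3/E2-2het against WT, which in the first set is a comparison of males with males, called 9 lower and 1 higher (33.3%, against 34.1% of all genes, 10.7% higher and 23.4% lower). That count fell to 6 without Sle1.3/E2-2het replicate 1, where the share of all genes also fell, to 22.2%. Arhgap30, Pex19, Kcnj10 and Copa passed in Sle1.3/E2-2het (-0.62, -0.53, 1.01 and -0.45) and not in Sle1.3 (-0.43, -0.39, 0.54 and -0.23), and the direct comparison of both Sle1.3 genotypes called none of them.

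Between the genotypes that share the interval, no change in these genes was called. By Xist and Uty the first-set arrays of this comparison are male Sle1.3/E2-2het and female Sle1.3, so genotype and sex cannot be told apart there, while both second-set arrays are female. In Sle1.3/E2-2het relative to Sle1.3, 0 of 30 passed in limma, against 0.615% of all genes, and 1 had an unadjusted p under 0.05. That gene was Kcnj10 (0.47, SE 0.18, 95% interval 0.08 to 0.86, adjusted p = 0.363), with a difference of 0.60 in the first set, males against females, and 0.19 between the second-set arrays. Without Sle1.3/E2-2het replicate 1 its difference was 0.22 (adjusted p = 0.709). The other 29 genes differed by less than 0.25 in either direction, and their intervals all held 0. Copa had the lowest value (-0.22, 95% interval -0.51 to 0.06), with -0.38 within the first set and 0.09 between the second-set arrays. B4galt3 differed by 0.15, Dedd by -0.01 and Tagln2 by -0.05, with SE of 0.12, 0.14 and 0.14. The median SE was 0.13, and the intervals reached from -0.51 to 0.86, so differences within them may not be detectable here.

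**Figure D4:**
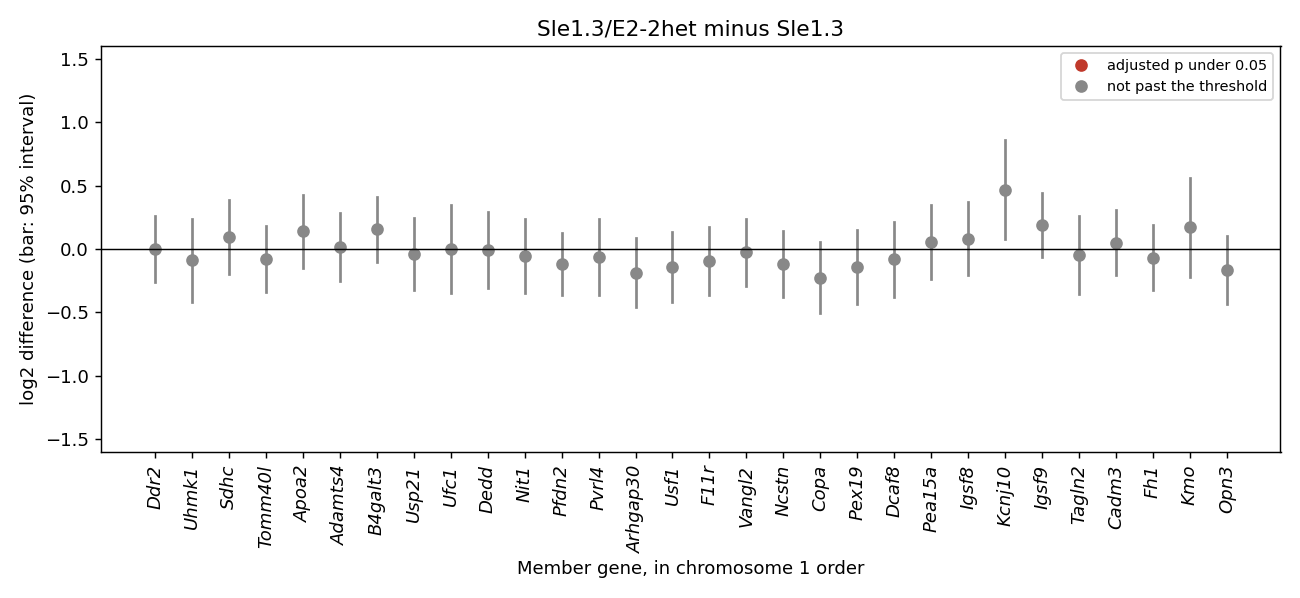
Log2 difference of Sle1.3/E2-2het from Sle1.3 (vertical axis, same scale as the plot of differences from WT) for the 30 tested interval genes in chromosome order (horizontal axis). Points are fitted differences and bars 95% intervals. No gene passed, and the interval of Kcnj10 (0.08 to 0.86) is the one that does not hold 0.

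The second array set moved many of these genes. Relative to the first set 12 of 30 were higher and 3 lower (50%, against 36.8% of all genes, of which 34.8% were higher and 1.93% lower). Tomm40l (-0.63), Usf1 (-0.51) and Tagln2 (-0.47) were lower there, and Pvrl4 (0.79), Pex19 (0.79), Sdhc (0.65) and Ufc1 (0.63) were among the higher. Tomm40l was 6.14 and 6.17 in WT, 6.25, 6.44 and 5.63 in Sle1.3, and 6.28, 6.14 and 5.67 in Sle1.3/E2-2het, and its second-set arrays lay below all others.

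Genes that work with these proteins but are encoded outside the interval were higher for 4 of 53 and lower for 7 (20.8%, against 34.8% of all genes), with a median of -0.19. The 11 calls fell to 5 without WT replicate 2, to 6 without Sle1.3 replicate 1 and to 7 under quantile normalization. For gamma-secretase, the partner Psen2 was lower (-0.74, SE 0.12, adjusted p = 0.00162), while Aph1b was higher (0.49, adjusted p = 0.0195), with 4 tested. RefSeq places Psen2 on chromosome 1 as well, beyond the last of the interval genes, and whether the introgressed segment reaches it is not given in the labels. Among 7 peroxisome import genes Pex10 (-0.90) and Pex13 (-0.53) were lower, and 5 did not pass. Of 12 complex II and citrate cycle genes Ogdh (-0.87) and Sdha (-0.42) were lower. Of 5 kynurenine pathway genes Haao (-0.47) and Qprt (-0.47) were lower and Ido2 (0.48) higher. Of 8 coatomer genes Copz2 (0.41) was higher, and of 6 outer membrane translocase genes Tomm7 (0.46) was. No prefoldin gene of 5 was called, with Vbp1 (-0.49, adjusted p = 0.0853) and Pfdn4 (-0.10, adjusted p = 0.549) lowest in p. No UFM1 pathway gene of 6 was called, with Ufm1 at -0.28 (adjusted p = 0.143) and Ufsp1 at -0.23 (adjusted p = 0.181). Between the Sle1.3 genotypes Ufl1, the ligase of UFM1, was lower in Sle1.3/E2-2het (-0.67, SE 0.13, adjusted p = 0.0469).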

How the data were processed

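The deposited table holds linear-scale intensity values for 35556 probe sets. The authors used RMA and Affymetrix Expression Console, per the submitters' processing notes, and versions are not given in the sources used here. Here log2 was taken and the values were otherwise kept as they stand; no detection calls were used. The number of arrays limits the precision.

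Probe sets with 1 gene symbol numbered 21789, with several 1621 and with none 12146, per GEO's platform annotation. A gene was read from its probe set with the highest mean. Genes with a mean above the 25th percentile entered 1 two-sided limma fit (version 3.58.1, R 4.3.3, lmFit and eBayes) with group and array set as terms and 4 residual degrees of freedom, at an adjusted p threshold of 0.05. The second set is the arrays whose lowest intensity exceeded 8. On simulated data for the combined comparison, 81.0% of 200 genes changed by 1 on the log2 scale were recovered. Positions came from RefSeq (GRCm38.p6) by Entrez identifier and were used for order only, except the printed promoter windows, where 33 of the listed genes matched. Probe sequences were not used here.

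The members and lists were chosen with earlier results of these data known. Text names members past the threshold with all values, others by smallest p, up to 10 other interval genes by size, and up to 4 called genes of a partner list or the 2 with the smallest p. Partner lists were complex II and citrate cycle, prefoldin, coatomer, gamma-secretase, UFM1, peroxisome import, outer membrane translocase, kynurenine and the immune families of the interval.

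Same-numbered Sle1.3 and Sle1.3/E2-2het arrays deviated together (across genes, r was 0.573 for number 1, 0.369 for number 2 and 0.618 for number 3), so the replicate number was tried as a block. Alternatives were 9 other settings and leaving out each of 8 arrays.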

Additional observations from a re-analysis of the deposited data

How the results depend on the processing

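Called interval genes numbered 9 for both Sle1.3 genotypes together, 6 for Sle1.3 and 10 for Sle1.3/E2-2het against WT, and 0 between the Sle1.3 genotypes, beside 21 other interval genes and 11 partner genes in the combined comparison. With group alone the counts were 4, 3, 4, 0, 11 and 1. With labelled sex in place of the array set they were 3, 0, 2, 0, 6 and 0 in limma, with 6, 5, 7, 0, 17 and 6 at an unadjusted p under 0.05. The share of all genes called fell too. In the 3 comparisons with WT, in the same order, it was 34.8%, 24% and 34.1% in the main fit. With group alone it was 11.5%, 5.88% and 7.2%, and with labelled sex 4.63%, 1.33% and 3.29%. The replicate block, which pairs same-numbered arrays, gave 10 for Sle1.3 against WT and moved no other of these counts by over 1.5 times. Quantile normalization gave 13 other interval and 7 partner genes, and the 50th-percentile filter, which tests fewer genes, 7 other interval genes. Leaving out 1 array at a time gave 5 to 10, 4 to 8, 5 to 11, 0, 11 to 20 and 5 to 13. The lowest of each came without WT replicate 2, except for Sle1.3 against WT, where omission of Sle1.3 replicate 1 also gave 4; partner genes fell to 6 without that array. The causes were not tested. Of differences of single interval genes in the combined comparison, 473 kept their side of the threshold under an alternative, 22 lost and 7 gained a call, and no call turned its direction. Between the Sle1.3 genotypes all 502 kept theirs.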
